A study of Mus musculus with 7 samples.

Results

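Notch signalling was examined in the chromatin maps of mouse cerebellar granule cells through 9 genes, namely the receptors Notch1 and Notch2, the ligands Jag1, Dll1 and Dll3, and the Hes and Hey genes Hes1, Hes5, Hes6 and Hey1. A peak was counted at a gene when its centre lay in the gene or within 50 kb of either end (mm10, GENCODE M21), and each of the 9 genes was found among the 21951 protein-coding genes. This gave 37 of 31400 H3K27ac peaks and 3 of 1946 Chd7 peaks from wild-type (WT) granule neuron progenitors (GNPs), and 0 of 96 Chd7 peaks from Chd7-deficient GNPs. In granule neurons (CGNs), 13 of 17030 Top2b peaks from WT cells and 19 of 21505 from Chd7-deficient cells lay at these genes. The genes were listed for their place in the pathway, and no peak value entered the choice.

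The peaks came from ChIP-seq, in which DNA bound by a protein or carrying a histone mark is pulled down with an antibody and sequenced. All cells were from mice at postnatal day 7, labelled C57BL/6 and named C57BL/6N in the study's methods. The labels name the deficient cells only as Chd7 KO, while the study uses Chd7 f/f mice as WT and, for deficient granule cells, Atoh1-Cre::Chd7 f/f mice, whose Cre acts in the granule cell lineage and, by the study's description, probably recombines less efficiently in the posterior lobe, where some Chd7 protein was left. GNPs were purified on a Percoll gradient, and CGNs were GNPs grown for 48 h without Sonic hedgehog. H3K27ac is an acetylation of histone H3 found at active promoters and enhancers, Chd7 is an ATP-dependent chromatin remodeller, and Top2b is a topoisomerase that cuts and rejoins both DNA strands. Each condition had 1 library, so that no difference between libraries could be tested, no spread between animals is known, and every statement below describes these libraries.

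In the Notch pathway, a Delta-like or Jagged ligand on a neighbouring cell binds a Notch receptor, which is then cleaved so that its intracellular domain enters the nucleus and joins the DNA-binding protein Rbpj. Hes and Hey genes encode basic helix-loop-helix repressors that bind E-box or N-box sequences, and Hes1, Hes5 and Hey1 are classical targets of this complex. In the developing brain the pathway holds progenitors in an undifferentiated state, and Hes6, which is tied to neuronal differentiation, opposes Hes1.

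The sequences at the target genes are shown because they carry the Chd7 peaks and the Rbpj core described next. The windows are 300 bases long, on GRCm38 (mm10), read from the RefSeq assembly and its promoter table. The Chd7 windows run around the peak summit on the plus strand, at chr16:30063872-30064171 for Hes1 and chr1:91414242-91414541 for Hes6. The promoters, from 250 bases before to 50 after a RefSeq start and in the direction of the gene, lie at chr4:154960673-154960972 (plus strand) for Hes5 and chr1:91413989-91414288 (minus strand) for Hes6. Capitals mark the Rbpj core TGGGAA or its complement TTCCCA, and the E-box CANNTG.
Hes1 Chd7 window: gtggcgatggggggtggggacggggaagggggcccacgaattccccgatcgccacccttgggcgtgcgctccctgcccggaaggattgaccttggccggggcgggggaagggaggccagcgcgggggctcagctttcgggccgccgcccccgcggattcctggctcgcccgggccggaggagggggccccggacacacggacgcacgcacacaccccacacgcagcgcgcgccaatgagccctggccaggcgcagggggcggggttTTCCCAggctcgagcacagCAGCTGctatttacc
Hes6 Chd7 window: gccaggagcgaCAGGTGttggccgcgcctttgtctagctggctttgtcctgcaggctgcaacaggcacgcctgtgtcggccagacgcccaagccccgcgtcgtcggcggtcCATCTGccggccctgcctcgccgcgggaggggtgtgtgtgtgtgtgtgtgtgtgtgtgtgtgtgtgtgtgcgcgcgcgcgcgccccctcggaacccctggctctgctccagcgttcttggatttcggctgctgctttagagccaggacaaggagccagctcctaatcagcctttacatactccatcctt
Hes5 promoter: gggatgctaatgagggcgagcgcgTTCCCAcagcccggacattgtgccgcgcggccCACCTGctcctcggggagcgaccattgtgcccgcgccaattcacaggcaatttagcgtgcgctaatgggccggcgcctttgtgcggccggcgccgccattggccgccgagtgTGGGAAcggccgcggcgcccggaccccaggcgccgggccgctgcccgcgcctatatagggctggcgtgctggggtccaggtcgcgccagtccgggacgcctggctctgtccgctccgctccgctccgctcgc
Hes6 promoter: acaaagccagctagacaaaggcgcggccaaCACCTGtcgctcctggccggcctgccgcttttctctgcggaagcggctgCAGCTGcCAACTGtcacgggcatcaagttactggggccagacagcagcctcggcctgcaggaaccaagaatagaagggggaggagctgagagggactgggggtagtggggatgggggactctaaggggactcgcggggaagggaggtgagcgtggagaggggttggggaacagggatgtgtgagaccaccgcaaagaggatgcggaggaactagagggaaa

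The Rbpj core, searched on both strands, occurred 2 times in the Hes5 promoter, at positions 25 and 169 of the window, and 1 time in the Hes1 Chd7 window, 118 bases after the summit. It was not found in the Hes6 Chd7 window or in the Hes6 promoter shown. The core is short and common, being present in 25.6% of 32851 RefSeq promoters, in 22.2% of 1902 Chd7 windows of the same length and in 24.9% of H3K27ac windows. The other promoters that matched a listed gene, for Notch1, Notch2, Jag1, Dll1 and Dll3 and a further start of Hes6, did not hold these letters. In all, 7 of the 9 genes matched 9 promoters of the table, and Hes1 and Hey1 had no entry.

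E-boxes were found in each of the 4 printed sequences. The Hes1 Chd7 window held a CAGCTG, 138 bases after the summit, and the Hes6 Chd7 window held a CATCTG, 36 bases before the summit, and a CAGGTG. The Hes6 promoter held CAGCTG directly followed, after 1 base, by CAACTG, and a CACCTG further upstream, which is the CAGGTG of the Chd7 window read on the other strand, since these windows overlap. CAGCTG and CATCTG are forms of the general E-box bound by proneural factors such as Atoh1, the factor that specifies granule cells. They occurred in 26.1% and 31.2% of Chd7 windows, in 18% and 22.4% of H3K27ac windows, and in 16.3% and 17.2% of RefSeq promoters. Any E-box occurred in 76.7% of Chd7 windows and 72.3% of promoters, so that its presence does not set these sequences apart. The N-box CACNAG, present in 41.4% of Chd7 windows, was not found in either Chd7 window shown. The Hes1 window was 73.7% G and C and the Hes6 window 64.3%, while the median Chd7 window had 56%.

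The peaks of the 5 libraries were spread unevenly over the 9 genes. H3K27ac peaks were called at 7 of 9 genes, against 73.5% of protein-coding genes, and the share among the listed genes is near that background. Jag1 and Hes1 were the genes without any. WT Chd7 peaks were called at 2 of 9 genes, Hes1 and Hes6, against 14.3% of protein-coding genes. A Chd7 peak within 1 kb of the gene start was likewise called at Hes1 and Hes6, that is at 2 of 9 genes, against 3.65%. At Hes1 this rests on the GENCODE start, since the peak ended 1.16 kb from the RefSeq start, outside that distance. With 9 genes and no replicate, these counts describe the genes and are not a test of the pathway.

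**Figure D1:**
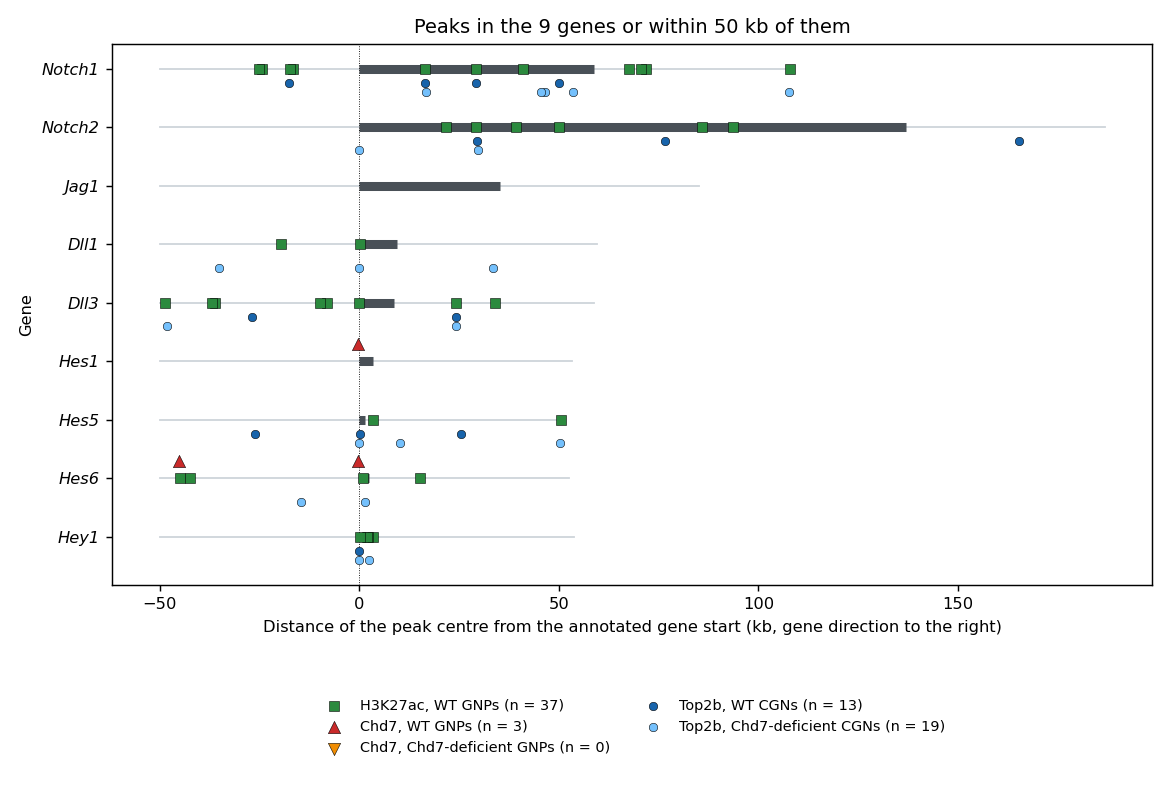
Each row is a gene, with its body as a dark bar and the 50 kb on either side as a thin line. Symbols give the distance in kb of each peak centre from the gene start, for H3K27ac (37 peaks) and Chd7 (3 in WT and 0 in Chd7-deficient GNPs) and for Top2b (13 in WT and 19 in Chd7-deficient CGNs). Chd7 peaks are found next to the starts of Hes1 and Hes6 and 45.1 kb upstream of Hes6, and Jag1 has no peak in any library.

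Among the receptors, Notch1 had the most H3K27ac peaks of the list, 11 in its window. Only 3 of the 11 lay inside the gene, with 4 upstream and 4 downstream. The inside peaks were 16.4, 29.3 and 40.9 kb from the start, with fold enrichments of 4.20, 2.38 and 2.95. Fold enrichment is here the pileup plus 1 over the local background plus 1, as MACS2 computes it. The upstream peaks formed pairs 16.6 and 17.2 kb and 24.4 and 25.1 kb before the start, with fold enrichments of 4.45, 3.02, 4.62 and 5.15. The 4 downstream peaks lay nearest to the starts of other genes, Inpp5e (fold enrichment 12.93) and Sec16a (up to 7.94), and included the strongest of the window.

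No H3K27ac peak was called within 1 kb of the Notch1 start, and the nearest one lay 15.7 kb from it. This depends on the annotation, since GENCODE places the 5′ end of Notch1 12.8 kb upstream of the RefSeq start, from which the same peak was 2.85 kb away. That peak, at chr2:26499468-26500970, was also crossed by a Top2b peak in WT CGNs and by another in Chd7-deficient CGNs, 16.5 and 16.6 kb from the GENCODE start. No Chd7 peak lay in the Notch1 window, and the nearest was 376.2 kb from the start.

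Notch2, the second receptor, had 6 H3K27ac peaks, each inside the gene body of 136.8 kb. They lay from 21.8 to 93.7 kb into the gene, with fold enrichments from 3.28 to 4.50 and pileups (fragments covering the summit, scaled by the peak caller) from 17.9 to 28.2. All 6 pileups were thus below the median of the H3K27ac table, which was 32, and the fold enrichments lay on both sides of its median of 4.35. Neither the start of Notch2 nor the 21.5 kb after it held a called H3K27ac peak. The nearest Chd7 peak was 354.9 kb from the start.

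The ligands differed from each other. Dll3, a divergent ligand that does not activate Notch in trans, had 8 H3K27ac peaks in its window, but only the one over its own start was nearest to Dll3. That peak, chr7:28301277-28303188, had a pileup of 49.9 and a fold enrichment of 5.65. The other 7 lay nearest to the starts of Timm50, Supt5, Eid2, Eid2b and Rps16, and the strongest were those at Timm50 (10.99) and Rps16 (10.05). Dll1, an activating ligand, had a weak peak across its start, chr17:15376337-15376899, with a pileup of 31.1 and a fold enrichment of 2.67, and a stronger one 19.6 kb upstream in the 5′ part of Fam120b (5.87).

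Jag1, the remaining ligand, was the only listed gene with no peak of any of the 5 libraries. Dlk1, a ligand gene of the pathway outside the list, had none either. Jag1 had a window of 135.2 kb. Its start lay 224.0 kb from the nearest H3K27ac peak, 931.2 kb from the nearest WT Chd7 peak and 140.4 kb from the nearest Top2b peak of Chd7-deficient CGNs. No ligand had a Chd7 peak in its window, and the nearest to a ligand was 65.98 kb from the start of Dll3.

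The Hes and Hey genes included the only listed genes with Chd7. Hes6 had an H3K27ac peak of 1842 bp across its start, chr1:91412273-91414114, with a pileup of 101.7 and a fold enrichment of 7.33. A WT Chd7 peak, chr1:91414107-91414615, lay at the upstream edge of this peak and shared 8 bases with it. Its centre was 323 bp upstream of the start. At its summit 28 fragments were counted (95% exact Poisson interval 18.6 to 40.5, counting error only), against 6.21 expected from the local background, and with 1 added to each the enrichment was 4.02-fold, at a −log10 q-value of 6.06. Of the 1946 Chd7 peaks, 74.2% had a lower −log10 q-value. A run of alternating g and t spans the summit in the sequence printed above.

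A further Chd7 peak in the Hes6 window, chr1:91458877-91459383, was 45.1 kb upstream of Hes6 and 194 bp from the start of Per2, a core clock gene. It had 23 fragments at the summit (14.6 to 34.5), its enrichment was 3.98-fold with a −log10 q-value of 4.78, and all its 507 bases lay within an H3K27ac peak of fold enrichment 19.2. By position this peak belongs to the Per2 promoter. The strongest H3K27ac peak at any listed gene, with a fold enrichment of 21.6, lay 15.3 kb downstream of the Hes6 start, at the start of Ilkap.

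Hes1 was the gene with a Chd7 peak and no H3K27ac peak. The Chd7 peak, chr16:30063773-30064199, lay in intergenic sequence with its centre 398 bp upstream of the GENCODE start, and its end was 1.16 kb from the RefSeq start, which lies 0.973 kb further into the gene. At its summit 21 fragments were counted (13.0 to 32.1), against 6.21 from the local background. The fold enrichment was 3.05 and the −log10 q-value 2.48, and only 10.9% of WT Chd7 peaks had a lower one, so that this was a weak peak of the table. The nearest H3K27ac peak was 246.6 kb away.

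Such a combination was uncommon in the table of Chd7 peaks. Of the 3 Chd7 peaks at the listed genes, 2 overlapped H3K27ac (66.7%, 95% Wilson interval 20.8 to 93.9), against 77.9% of all WT Chd7 peaks. Seen from the mark, 2 of the 37 H3K27ac peaks overlapped Chd7 (5.41%, Wilson interval 1.495 to 17.7), against 4.98% of all H3K27ac peaks. When at least 50% of the Chd7 peak had to be covered, the promoter peak of Hes6 no longer counted, since it shared 8 bases. Of the 709 Chd7 peaks within 1 kb of a gene start, 7.9% overlapped no H3K27ac peak. Among the 1902 on chromosomes 1 to 19, X and Y, 3.94% were at least as far from H3K27ac as the peak at Hes1. Of the 3136 protein-coding genes with a Chd7 peak in the window, 4.4% had no H3K27ac peak there.

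**Figure D2:**
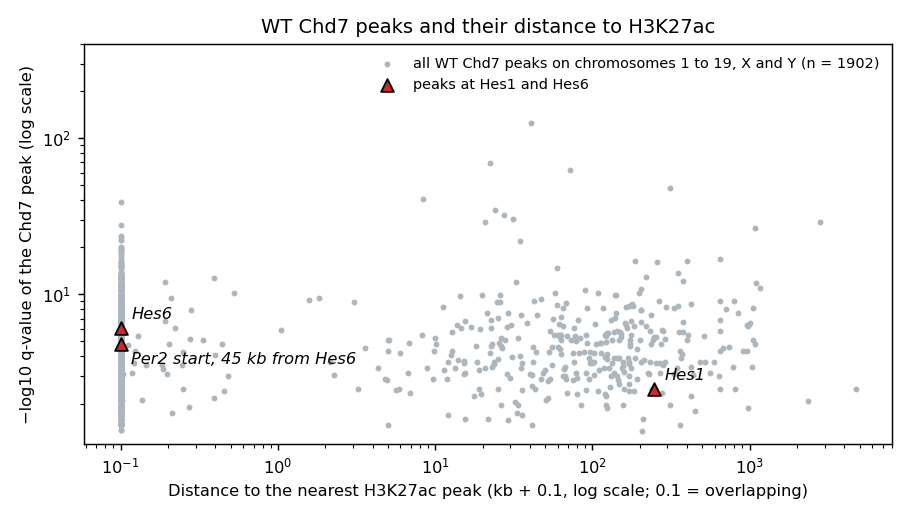
The horizontal axis gives the distance in kb (plus 0.1, log scale) from each of 1902 WT Chd7 peaks to the nearest H3K27ac peak, and the vertical axis its −log10 q-value (log scale), with the 3 peaks at Hes1 and Hes6 as triangles. The Hes6 and Per2 peaks sit with the overlapping peaks at the left, and the Hes1 peak sits at 246.6 kb with a −log10 q-value of 2.48.

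No Chd7 peak was called at the listed genes in Chd7-deficient GNPs. Hence 0 of the 3 WT peaks were called again (0%, Wilson interval 0 to 56.1), against 3.19% of all 1946 WT peaks. A peak of the deficient cells lay at 0 of 9 genes, against 0.205% of protein-coding genes, so that their absence here is what the whole table shows. The table of deficient cells held 96 peaks with a lowest pileup of 14, while the lowest in WT was 12. The study's methods give a lower bound on mapped reads, stated after the description of the H3K27ac ChIP-seq, but no number for each library. Whether depth differed was not tested.

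Hey1 and Hes5 had no Chd7 peak and differed in acetylation. Hey1, a target gene of 3.90 kb, had 4 H3K27ac peaks, each inside the gene, and was the only listed gene whose H3K27ac peaks were all nearest to its own start. The peak across its start, chr3:8666331-8668023, had a pileup of 56.5 and a fold enrichment of 7.72, the highest at the start of any of the 9 genes. The other 3 had fold enrichments from 2.48 to 4.71. Hes5 had no peak of its own, as its 2 H3K27ac peaks lay at the start of Pank4, 3.54 kb from the Hes5 start (fold enrichment 10.2), and in an intron of Plch2 (5.97).

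Over the list, H3K27ac was called within 1 kb of the start at 4 of 9 genes, Hey1, Hes6, Dll3 and Dll1, against 42.9% of protein-coding genes. Taking every annotated start of a gene left the count at 4 of 9, against 46.5%. The 4 fold enrichments, 7.72, 7.33, 5.65 and 2.67, were all below 8.48, the median of the 9416 protein-coding genes with a peak at the start. Of the 37 H3K27ac peaks, 17 were nearest to the start of a listed gene, and had a median fold enrichment of 4.20 (2.38 to 7.72). The other 20 were nearest to the start of another gene, 13 of them within 1 kb, and had a median of 6.74 (2.69 to 21.6). Much of the acetylation counted in the windows of Dll3, Hes5, Hes6 and Notch1 was therefore at neighbouring genes.

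**Figure D3:**
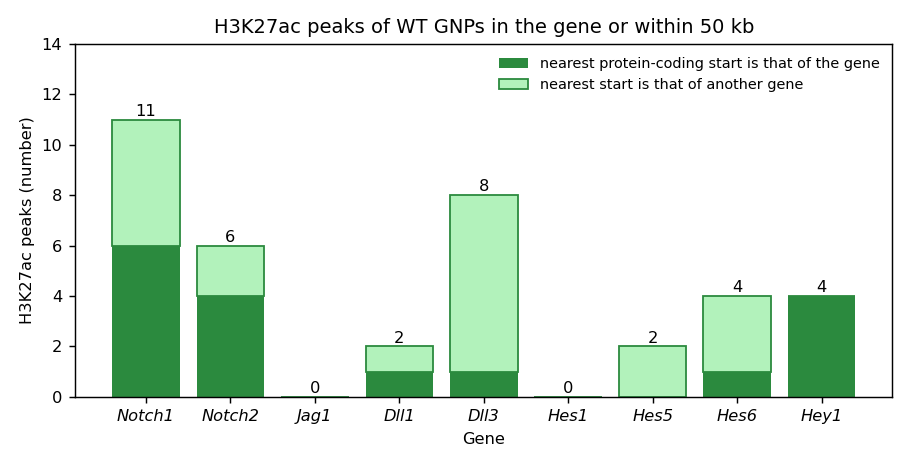
Bars give the number of H3K27ac peaks of WT GNPs in each gene or within 50 kb of it, split by whether the nearest protein-coding start is that of the gene (dark, 17 peaks) or of another gene (pale, 20 peaks). Of the 8 peaks at Dll3 1 is nearest to Dll3, both peaks at Hes5 are nearest to other genes, and all 4 at Hey1 are nearest to Hey1.

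None of the 9 genes overlapped a super-enhancer, against 4.18% of protein-coding genes. Super-enhancers are long clusters of strong H3K27ac peaks, here peaks stitched over gaps of up to about 13 kb and ranked by width times pileup, of which 612 of 17539 domains passed the point where the ranked curve reaches a slope of 1. The highest-ranked domain that overlapped a listed gene was that of Dll3, at rank 1831, followed by Hes6 at 3007, Hey1 at 4320, Notch1 at 5597, Notch2 at 7244 and Dll1 at 12525. The Dll3 domain also included the Timm50 peaks. The domain across the Per2 start, in the Hes6 window, ranked 1039.

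The remaining pathway was followed in 43 further genes. H3K27ac was called at the start of 26 of them (60.5%), against 42.9% of protein-coding genes, with a median fold enrichment of 9.14 over those 26 (8.48 over protein-coding genes with such a peak) and the highest value, 30.3, at Maml1, a co-activator of the Notch intracellular domain. The enzymes that cleave the receptor had it at 7 of 9 starts, among them Adam10 (23.5). The nuclear partners had it at 5 of 6 and the inhibitors and turnover factors at 7 of 9, whereas the other receptors, Notch3 and Notch4, had it at 0 of 2. The other target genes, Hey2, Heyl, Hes2, Hes3 and Hes7, had it at 0 of 5. Among the other ligands, 1 of 4, Dner, had a peak at the start (10.4). Dner is expressed by neurons. With every annotated start, H3K27ac was called at 30 of the 43 (69.8%), against 46.5% of protein-coding genes. The cleaving enzymes then had it at 8 of 9, the nuclear partners at 6 of 6 and the other receptors at 1 of 2, Notch4 (7.71). The counts of the inhibitors and turnover factors, the other targets and the other ligands stayed the same.

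Chd7 peaks lay at 7 of the 43 genes (16.3%), near the background of 14.3%, and within 1 kb of the start at 2 of 43 (4.65%), Maml1 and Numbl, near the background of 3.65%. The Maml1 peak was 0.087 kb into the gene with a fold enrichment of 4.58, and that of Numbl, a relative of the Notch inhibitor Numb, was 0.23 kb into the gene with 3.71. Among the others, Maml3 had 2 peaks, and Notch4, Neurl1b and Hes3 had 1 each. None of the 43 had a Chd7 peak in Chd7-deficient GNPs. Super-enhancers overlapped 4 of the 43 (9.30%, against 4.18% of protein-coding genes), including Spen, Ncstn and Numbl, of which Spen encodes a corepressor partner of Rbpj and Ncstn the nicastrin subunit of gamma-secretase. Of the H3K27ac peaks in their windows, 7 of 10 at Spen, 2 of 8 at Numbl and 0 of 11 at Ncstn were nearest to the gene's own start. A peak did lie within 1 kb of the Ncstn start (13.2).

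Marker genes of the labelled cell type and of others were described, since Notch receptors and Hes genes are also expressed in glia. The marker lists were chosen with earlier results of these data known, so they are not an independent check of the cell type. All 10 granule lineage markers had H3K27ac at the start, with fold enrichments from 2.62 at Ccnd2 to 33.8 at Meis1 (median 20.2), against 42.9% of protein-coding genes, and 8 of them overlapped a super-enhancer. Of the markers of other cell types, Lhx1 of the interneuron list and Pdgfra of the oligodendrocyte list also overlapped one. Of 8 markers of Bergmann glia and astrocytes 3 had a peak at the start, Slc1a3, Fabp7 and Sox9, with fold enrichments from 4.86 to 7.84. This range includes the values at the starts of Hey1, Hes6 and Dll3. The ranges of the granule lineage markers and of the interneuron markers (3.31 to 10.6) include them too. Gfap, Aqp4, Hopx, Gdf10 and Aldh1l1 had no peak at the start, although Gfap had one (3.53) when every annotated start was used. The counts were 1 of 5 for Purkinje cells, 3 of 5 for inhibitory interneurons, 1 of 5 for the oligodendrocyte lineage, 0 of 4 for microglia and 0 of 5 for endothelium. With every annotated start they were 1 of 5, 4 of 5, 2 of 5, 1 of 4 and 1 of 5, and 4 of 8 for glia, against 46.5% of protein-coding genes. The part of other cell types in the peaks at the listed genes was not tested. In such bulk samples, fewer cells that carry a mark and less of the mark per cell cannot be told apart.

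**Figure D4:**
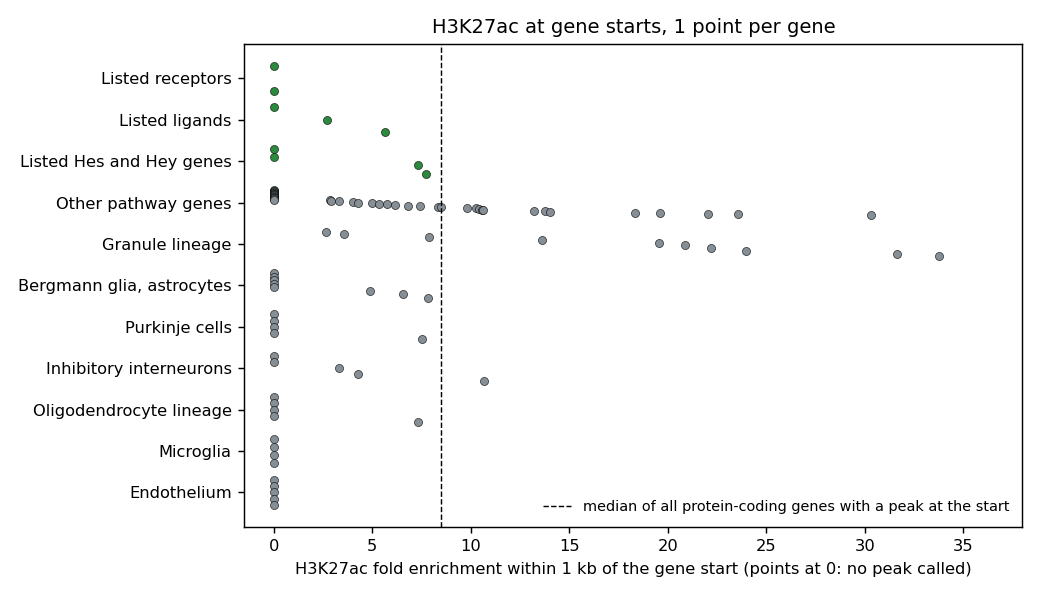
Each point is a gene, placed by the fold enrichment of H3K27ac within 1 kb of its start in WT GNPs (horizontal axis, with 0 for no called peak), and rows are the listed genes by role (green), the 43 other pathway genes and the markers of 7 cell classes. The dashed line is the median of protein-coding genes with a peak at the start, 8.48. The 4 listed genes with a peak lie at 2.67 to 7.72, to the left of the line, and the granule lineage markers reach 33.8.

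Top2b was mapped in CGNs, and its peaks lay at 5 of 9 genes in WT CGNs, against 62.1% of protein-coding genes, and at 7 of 9 in Chd7-deficient CGNs, against 70.9%. These tables give positions with no height, so that the sites cannot be compared in strength. Per gene in WT and Chd7-deficient cells respectively, there were 4 and 5 peaks at Notch1, 3 and 2 at Notch2, 2 and 2 at Dll3, 3 and 3 at Hes5 and 1 and 2 at Hey1. Dll1 had 0 and 3 and Hes6 0 and 2, and neither Jag1 nor Hes1 had any.

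Within 1 kb of a gene start, WT Top2b was called at 2 of 9 genes, Hes5 and Hey1, against 9.64% of protein-coding genes. In Chd7-deficient CGNs it was called at 4 of 9, Notch2, Dll1, Hes5 and Hey1, against 20.3%. The share of all genes with Top2b at the start was thus also higher in the deficient table, and the larger count at the listed genes moved with it. At Hes5 the WT centre was 265 bp after the start and that of the deficient cells 169 bp before it. The WT peak, 396 bp wide, began at 154960991, and that of the deficient cells, 400 bp wide, ended at 154960954. These neighbouring peaks did not overlap, so they are counted below as called in WT alone and in the deficient cells alone. At Hey1 the centres were 23 bp before and 50 bp after the start, and the peaks overlapped. The peaks at Notch2 and Dll1 in the deficient cells were 44 and 103 bp before the start.

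Of the 13 WT Top2b peaks at the listed genes, 4 were called again in Chd7-deficient CGNs (30.8%, Wilson interval 12.7 to 57.6), against 16.8% of all WT Top2b peaks. Counted from the deficient cells, these were 4 of 19 (21.1%, 8.51 to 43.3), against 13.3%. Called again here means an overlap of at least 1 bp between called peaks. The study instead compared Top2b signal between genotypes and reported altered binding at a minority of Top2b sites. The shares given here therefore do not measure how much Top2b binding was lost. H3K27ac of GNPs lay under 5 of the 13 WT peaks, against 17.4% of all WT Top2b peaks, and under 10 of the 19 of the deficient cells, against 26.6%. Those 4 lay in Notch1 and in Notch2, at the start of Hey1 and at Eid2b in the Dll3 window. Each of the 4 also overlapped an H3K27ac peak of GNPs, against 43.1% of the 2861 WT Top2b peaks called in both genotypes. Of the 9 listed WT peaks called in WT alone, 1 overlapped H3K27ac, against 12.2% of such peaks in the table. Of the 15 called in the deficient cells alone 6 did, against 24.1%. Both the listed genes and the whole tables therefore had H3K27ac more often under the Top2b peaks called in both genotypes, and the H3K27ac was measured in progenitors and not in the neurons.

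None of the 3 Chd7 peaks at Hes1 and Hes6 overlapped a Top2b peak, against 16.6% of WT Chd7 peaks for the WT Top2b table and 34.2% for that of the deficient cells. At Hes6 the nearest Top2b peak in the deficient cells came within 1.21 kb of the start, in an exon of the gene and under its H3K27ac peak, while the nearest in WT was 107.5 kb away. At Hes1 the nearest were 201.2 kb away in WT and 77.9 kb in the deficient cells.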

How the data were processed

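ChIP-seq of 7 libraries was listed, of which 5 had processed files and 2, the inputs, were not analysed here. Reads were trimmed with Trim Galore and aligned to mm10 with Bowtie 1.0.0, keeping unique matches, and H3K27ac and Chd7 peaks were called with MACS2 and Top2b peaks with HOMER by the authors. The deposited MACS2 tables hold a pileup signal, −log10 p-values and q-values, and the fold of the pileup over that expected locally, with 1 added to each. Their decimal points had been displaced, and the −log10 p-values, −log10 q-values and folds were recovered by division by 100000. For both Chd7 tables this gave the Poisson p-value recomputed for each peak. The same division was applied to H3K27ac, including its fold enrichments, without that check. The deposited Top2b tables hold start and end only, with no score.

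Peaks were assigned to GENCODE M21 genes by their centre. Overlap meant 1 bp, and a start window 1 kb. Motifs were searched in 300-base windows of GRCm38, on both strands. Shares carry Wilson and pileups exact Poisson intervals at 95%, for counting error only. The counting was tested on simulated data, in which peaks planted at 200 genes were all recovered. The 9 genes were named by role, in full, and the lists of pathway genes, markers and motifs were chosen with earlier results of these data known. Values of some single pathway genes are not reported here. Python 3.11.15, pandas 2.3.3, scipy 1.17.1 and pysam 0.24.0 were used. Alternatives were window, peak threshold, summit, overlap, stitching, start distance and the genes compared with.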

Additional observations from a re-analysis of the deposited data

How the results depend on the processing

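Of 49 alternatives, 28 left the value within its range and 21 moved it. With a window of 5 kb upstream to 1 kb downstream, the peaks at the listed genes numbered 16 for H3K27ac, 7 for WT Top2b and 11 for Top2b of Chd7-deficient CGNs, and with the gene body alone 16, 6 and 8. The nearest start within 50 kb gave 16 H3K27ac peaks. The gene body held 0 WT Chd7 peaks, at 0 genes, since those at Hes1 and Hes6 lie upstream. A −log10 q-value of at least 5 left 1 WT Chd7 peak, at 1 gene, Hes6. This peak shared 8 bases with H3K27ac, so that the share of Chd7 peaks overlapping H3K27ac was 100%. A −log10 q-value of at least 10 left 0 Chd7 peaks at 0 genes and 22 H3K27ac peaks. The Hes1 peak thus depends on the authors' threshold. The share of protein-coding genes with a WT Chd7 peak moved to 6.04%, 4.34% and 5.16% with these 3 gene assignments, to 5.41% and 0.688% with the 2 thresholds, and to 10.7% over all annotated genes. The counts of 0 Chd7 peaks in deficient GNPs, 0 super-enhancers and 4 genes with H3K27ac at the start held under each alternative run for them. A stricter Top2b threshold was not run, as the tables carry no score. No paired analysis was possible because each condition had 1 library. The read number of each library is not in the files, and the study's methods give only a lower bound, without saying which libraries it covers. An uncalled peak therefore means no call at the authors' threshold.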
